A study of Mus musculus with 10 samples.

Results

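The genes described here are 38 genes known from sympathetic neurons, read on arrays of whole mouse aorta. They were taken from a fixed list by gene symbol, on probe sets with a single symbol in the platform annotation. Of several probe sets for a gene the one brightest on average over the arrays was read. The list was drawn up with earlier results of these data known. Shares of the members set beside shares of all genes below therefore describe the list and test nothing. All 38 of 38 members were found, among 18193 genes that have such a probe set. The study profiled total RNA of the aorta of male C57BL/6 mice on 1-colour Affymetrix arrays in 2 groups, wild type mice and mice lacking Ptgds (Ptgds-/-), which encodes the prostaglandin D synthase of the lipocalin type (L-PGDS). Of 10 samples listed, wild type replicate 2 was excluded per the labels and its column is empty, which leaves 4 wild type arrays (replicates 1, 3, 4 and 5) and 5 knockout arrays (replicates 1 to 5). The labels call them biological replicates, and state that the mice ate chow. Age, whether an array holds 1 mouse or a pool, how the allele was made, and which tissue was trimmed from the vessel are not given in the sources used here.

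Sympathetic neurons have their cell bodies in ganglia that lie along the spine and in front of the aorta, and send axons into the outer layer of arteries. A neuron's messenger RNA is concentrated in its cell body, so a preparation of artery with axons alone is known to hold little of it. These neurons take up acetylcholine signals through nicotinic receptors, make noradrenaline, and release it from vesicles together with peptides held in dense-core granules.

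The arrays had like distributions. Median log2 values lay between 5.88 and 5.97, and between 70.1% and 71.4% of 45101 probe sets exceeded 4 (log2), used here as the floor below which a value is read as background. Ptgds, the targeted gene, lay between 8.68 and 10.31 on the 4 wild type arrays and between 3.67 and 4.40 on the 5 knockout arrays. Wild type replicate 3 had a mean correlation with the other arrays of 0.983 over all probe sets, against 0.990 to 0.992 for the others. This array also carried the highest values of most genes described below, so the genotype changes below are also given without it.

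The neuron genes varied between aortas far more than most genes did, and in a shared order of arrays. The mean of the 38 members was 9.76 on wild type replicate 3, 8.34 on knockout replicate 1 and 7.12 on wild type replicate 4. On the other arrays it was 6.13 and 5.71 (wild type replicates 1 and 5) and 5.70, 6.02, 6.15 and 5.76 (knockout replicates 2 to 5). The high arrays thus came from both genotypes, and the groups overlapped. The range of a gene, its highest minus its lowest array, exceeded 2 log2 units (4-fold) for 32 of 38 members, or 84.2%, against 3.74% of all 18193 named genes. The median range was 4.59 log2 units over the members and 0.52 over all named genes. Wild type replicate 3 was the highest array for 36 members, or 94.7%, against 15% of all named genes. Among the 32 members with a range over 2, wild type replicate 3 was highest and knockout replicate 1 second in all 32, and wild type replicate 4 followed in 27. Hand2, Isl1, Uchl1, Sncg and Vsnl1 had another array in that place. In bulk tissue, more cells of a type and more RNA per cell cannot be told apart.

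**Figure D1:**
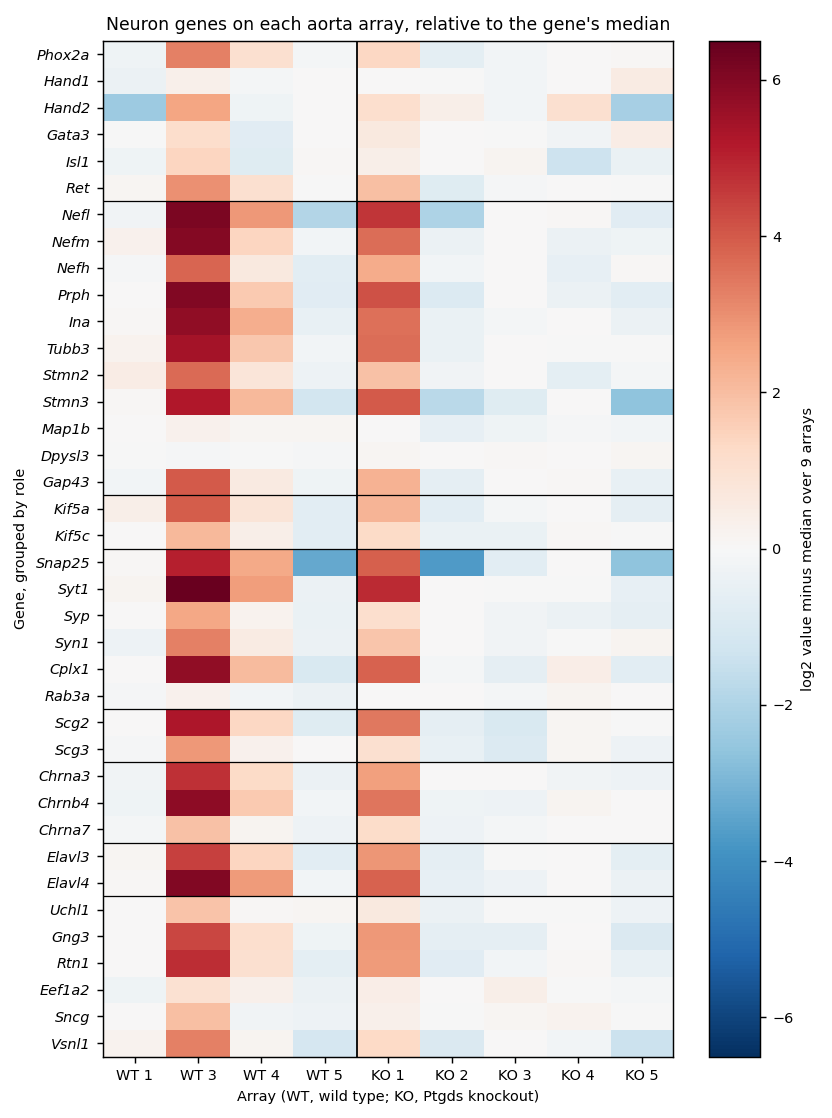
Each cell shows the log2 value of 1 gene (rows, grouped by role with lines between roles) on 1 array (columns, wild type left and knockout right of the line) minus that gene's median over 9 arrays. Wild type replicate 3, knockout replicate 1 and, more faintly, wild type replicate 4 stand out in most rows, while Map1b, Dpysl3 and Rab3a stay near their median on every array.

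Genes of the axonal cytoskeleton held some of the widest ranges. Of 11 members in this role, 9 had a range over 2 log2 units. Nefl, the light chain of neurofilaments, was at 5.35, 11.71, 8.42 and 3.71 on wild type replicates 1, 3, 4 and 5 and at 10.25, 3.58, 5.59, 5.67 and 4.86 on knockout replicates 1 to 5. Its lowest arrays, wild type replicate 5 and knockout replicate 2, lay under the floor. Nefm, the medium chain, was at 3.95, 9.63, 5.07 and 3.48 in wild type and at 7.29, 3.28, 3.66, 3.27 and 3.37 in knockout, so it was over the floor on only 3 arrays, those highest in the members' mean. Nefl and Nefm are next to each other among the protein-coding genes of chromosome 14 in GRCm38.p6. Nefh, the heavy chain, ranged from 3.42 to 7.92, and Ina, α-internexin, which assembles with them, from 2.88 to 9.14.

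Peripherin and neuronal tubulin followed the same order of arrays. Prph, peripherin, the intermediate filament typical of peripheral neurons, was at 4.67, 10.70, 6.38 and 3.93 in wild type and at 8.79, 3.77, 4.67, 4.31 and 3.98 in knockout. Tubb3, the β-tubulin isotype of neurons, ranged from 4.0 to 9.84. Stmn3, a stathmin that regulates microtubules, ranged from 3.89 to 11.74 with its lowest value on knockout replicate 5. Genes of axon growth stayed over the floor on every array while keeping a wide range: Stmn2, a stathmin of growth cones, ran from 5.89 to 10.21 and Gap43, a growth cone membrane protein, from 5.13 to 9.68 (23.5-fold).

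The remaining cytoskeletal members hardly varied. Map1b, a microtubule-associated protein, was at 10.83, 11.09, 10.91 and 10.90 in wild type and at 10.80, 10.29, 10.50, 10.70 and 10.63 in knockout. Its knockout arrays all lay below its wild type arrays; groups did not overlap, in either direction, in 6.76% of all tested genes. Dpysl3, which binds tubulin and actin during axon growth, was at 12.40, 12.35, 12.40 and 12.31 in wild type and at 12.52, 12.40, 12.47, 12.41 and 12.53 in knockout, a range of 0.22. All 3 probe sets of each gene had ranges under 1, from 0.52 to 0.80 for Map1b and from 0.22 to 0.73 for Dpysl3.

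The kinesin heavy chains of neurons, which carry cargo along axons, both rose and fell with the order of arrays. Kif5a was at 6.89, 10.48, 7.37 and 5.84 in wild type and at 8.75, 5.86, 6.4, 6.52 and 5.94 in knockout. Kif5c ranged from 8.57 to 11.37 (6.95-fold) and was over the floor on all arrays. Kif5b, the relative found in most tissues and no member, ranged only from 10.36 to 10.63.

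Genes of vesicle release included the member with the widest range. Snap25, the membrane SNARE of synaptic vesicle fusion, was at 7.60, 12.59, 9.96 and 4.17 on wild type replicates 1, 3, 4 and 5 and at 11.39, 3.85, 6.82, 7.52 and 4.91 on knockout replicates 1 to 5, a range of 8.73. Both genotypes held arrays near the floor and arrays over 11. Syt1, the calcium sensor of release, ranged from 3.66 to 10.60, and Cplx1, complexin, which clamps the fusion machinery, from 4.87 to 11.62 (108-fold, over the floor throughout). Syp, synaptophysin, a vesicle membrane protein, ran from 7.37 to 10.49, and Syn1, synapsin, which tethers vesicles, from 5.96 to 9.63. Rab3a, a small GTPase of secretory vesicles, was the exception in this role: it was at 10.25, 10.58, 10.15 and 9.95 in wild type and at 10.32, 10.32, 10.21, 10.51 and 10.31 in knockout. Its range of 0.63 was close to the median range of all named genes, and its second probe set had a range of 0.94.

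The granule proteins also followed. Scg2, secretogranin II, a precursor of granule peptides, was at 4.08, 9.34, 5.45 and 3.28 in wild type and at 7.53, 3.5, 3.07, 4.22 and 4.04 in knockout. Scg3, which helps to load granules, ranged from 5.66 to 9.35 (12.9-fold) and was over the floor on every array.

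Promoter sequences are shown for members that vary together and hold a match to a motif named below, and for 1 that hardly varies. Many neuronal genes are known to carry a site for REST, the repressor that silences them in other cells. RefSeq windows of GRCm38.p6 around the gene start were at hand for 28 of 38 members, in 36 windows, and for 4 of these members 260 bases (250 before the start and 10 after) are printed 5′ to 3′ on the gene's strand. The motifs searched on both strands were TTCAGCACC, the left arm of the REST site known as RE1, GGACAGC, its right arm, and TGACGTCA, the cyclic AMP response element. No match overlaps another in the printed windows. Capitals mark a match to any of them.

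Scg2 (chr1:79440017-79440276, minus strand, range 6.27): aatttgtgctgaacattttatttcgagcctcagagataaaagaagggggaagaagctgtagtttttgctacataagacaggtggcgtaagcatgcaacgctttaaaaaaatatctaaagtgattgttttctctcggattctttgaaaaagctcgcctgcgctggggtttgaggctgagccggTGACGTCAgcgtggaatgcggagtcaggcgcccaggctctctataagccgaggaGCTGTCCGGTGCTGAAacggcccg
Syn1 (chrX:20920909-20921168, minus strand, range 3.67): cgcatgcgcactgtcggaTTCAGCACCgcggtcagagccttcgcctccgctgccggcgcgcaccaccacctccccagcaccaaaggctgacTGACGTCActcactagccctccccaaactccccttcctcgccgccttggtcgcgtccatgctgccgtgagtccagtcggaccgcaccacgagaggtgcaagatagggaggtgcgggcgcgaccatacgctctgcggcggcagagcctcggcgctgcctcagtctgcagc
Kif5c (chr2:49619036-49619295, plus strand, range 2.80): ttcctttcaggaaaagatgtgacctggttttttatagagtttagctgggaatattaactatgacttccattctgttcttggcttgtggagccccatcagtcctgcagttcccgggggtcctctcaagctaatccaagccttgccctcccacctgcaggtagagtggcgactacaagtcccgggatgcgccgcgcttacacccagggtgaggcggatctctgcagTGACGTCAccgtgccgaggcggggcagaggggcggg
Rab3a (chr8:70754453-70754712, plus strand, range 0.63): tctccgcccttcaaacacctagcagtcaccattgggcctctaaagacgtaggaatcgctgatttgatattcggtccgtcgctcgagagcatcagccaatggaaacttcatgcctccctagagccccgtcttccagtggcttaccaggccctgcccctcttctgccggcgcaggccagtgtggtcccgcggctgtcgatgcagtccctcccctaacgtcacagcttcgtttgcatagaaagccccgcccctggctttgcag

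In the Scg2 window exact matches to both arms of RE1 lie directly side by side on the opposite strand. They begin 14 bases before the start and run across it. The arms were searched separately and their distance was not scored, so no window is read as a whole site. The Syn1 window holds an exact match to the left arm on the gene's strand, 232 bases before the start. Only exact matches were searched, so a right arm with changed letters would not be marked. TTCAGCACC was in the windows of these 2 members and in 0.371% of all 32851 windows; GGACAGC was in those of Rtn1, Scg2 and Tubb3 and in 6.56% of all; TGACGTCA was in those of Kif5c, Scg2 and Syn1 and in 1.79% of all. Neither of the 2 Rab3a windows, of which 1 is printed, holds any of them. Among the members with a window, only Kif5c, Rtn1, Scg2, Syn1 and Tubb3 held a match. Most wide-ranging members with a window thus held none either. A match describes letters only; binding was not measured.

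Nicotinic receptor subunits, through which ganglion neurons are excited, fell into the pattern with all 3 members. Chrnb4, the β4 subunit, was at 3.04, 9.13, 5.03 and 3.16 in wild type and at 6.77, 3.02, 2.99, 3.47 and 3.31 in knockout. It was over the floor on only 3 arrays. Chrna3, the α3 subunit that pairs with it in ganglia, ranged from 3.79 to 8.93, and Chrna7, the α7 subunit, from 6.90 to 9.13 (4.70-fold), over the floor on all arrays. Chrna5, Chrna3 and Chrnb4 follow each other on chromosome 9 in GRCm38.p6, and Chrna5, no member, was over the floor on wild type replicate 3 alone, at 5.64.

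The transcription factors and receptor of sympathetic identity were the most mixed role, with 4 of 6 over a range of 2. Phox2a, a homeodomain factor of noradrenergic neurons, was at 3.52, 7.07, 4.81 and 3.66 in wild type and at 5.15, 3.14, 3.62, 3.79 and 3.84 in knockout, over the floor on the 3 arrays high in the other members. Ret, the receptor kinase for ligands of the GDNF family, ran from 6.94 to 10.70 (13.5-fold), and Isl1, a LIM homeodomain factor, from 8.01 to 10.77 (6.74-fold), both over the floor throughout. Hand2, a basic helix-loop-helix factor of sympathetic neurons and heart, had an order of its own below the top: it was at 3.76, 8.68, 5.82 and 6.10 in wild type and at 7.19, 6.47, 5.93, 7.13 and 3.97 in knockout. Knockout replicate 4, where the mean of all members was 6.15, came next after wild type replicate 3 and knockout replicate 1. Wild type replicate 1 and knockout replicate 5 were at or under the floor. Gata3, a zinc finger factor, had a smaller range, from 4.67 to 6.53. It was still highest on wild type replicate 3 and second on knockout replicate 1, at 6.03. Hand1, the relative of Hand2, ranged from 4.76 to 5.66, with its highest value on knockout replicate 5.

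The RNA-binding proteins of neurons, Elavl3 and Elavl4, both followed the order. Elavl4 was at 3.42, 9.38, 6.11 and 3.16 in wild type and at 7.20, 2.79, 3.02, 3.34 and 2.97 in knockout, and Elavl3 ranged from 4.33 to 9.51. Among the other neuronal proteins, Gng3, a G protein γ subunit, ranged from 4.72 to 9.99, Rtn1, a reticulon of the endoplasmic reticulum, from 3.47 to 9.02, and Vsnl1, a calcium sensor, from 3.47 to 8.10. Uchl1, the ubiquitin hydrolase also known as PGP9.5 and used to stain nerves, was at 9.75, 11.59, 9.84 and 9.85 in wild type and at 10.36, 9.35, 9.74, 9.74 and 9.43 in knockout. All of its arrays but wild type replicate 3 and knockout replicate 1 thus lay within 9.35 to 9.85. Sncg, γ-synuclein, was similar in shape, at 9.59 on wild type replicate 3 and between 7.33 and 7.96 elsewhere. Eef1a2, a translation elongation factor of neurons and muscle, had a smaller range, from 6.11 to 7.45. It was still highest on wild type replicate 3 and second on knockout replicate 1, at 6.88.

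The members were split by whether they were over the floor on every array. A first set of 17 members was at or under the floor on at least 1 array: Phox2a, Hand2, Nefl, Nefm, Nefh, Prph, Ina, Tubb3, Stmn3, Snap25, Syt1, Scg2, Chrna3, Chrnb4, Elavl4, Rtn1 and Vsnl1. A second set of 15 was over the floor on all 9 arrays and had a range over 2: Isl1, Ret, Stmn2, Gap43, Kif5a, Kif5c, Syp, Syn1, Cplx1, Scg3, Chrna7, Elavl3, Uchl1, Gng3 and Sncg. The last set of 6 was over the floor on all arrays with a range of at most 2: Hand1, Gata3, Map1b, Dpysl3, Rab3a and Eef1a2. The 21 members over the floor on every array are 55.3% of the 38, against 74.5% of all named genes. The floor is a setting and shows no transcript by itself: flat probe sets of Cplx1 (4.10 to 4.74) and Elavl3 (4.51 to 4.81) lay over it on every array while other probe sets of these genes varied widely. Which cells made the transcripts was not tested. With a floor of 6 in place of 4, 11 members were over it on every array. Close to the cut of 2 lay Chrna7 at 2.23, Uchl1 at 2.24 and Sncg at 2.25 on one side and Gata3 at 1.86 on the other. Close to the floor, Tubb3 was over it on 8 arrays with a lowest value of 3.996, and Elavl3 had a lowest value of 4.33.

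**Figure D2:**
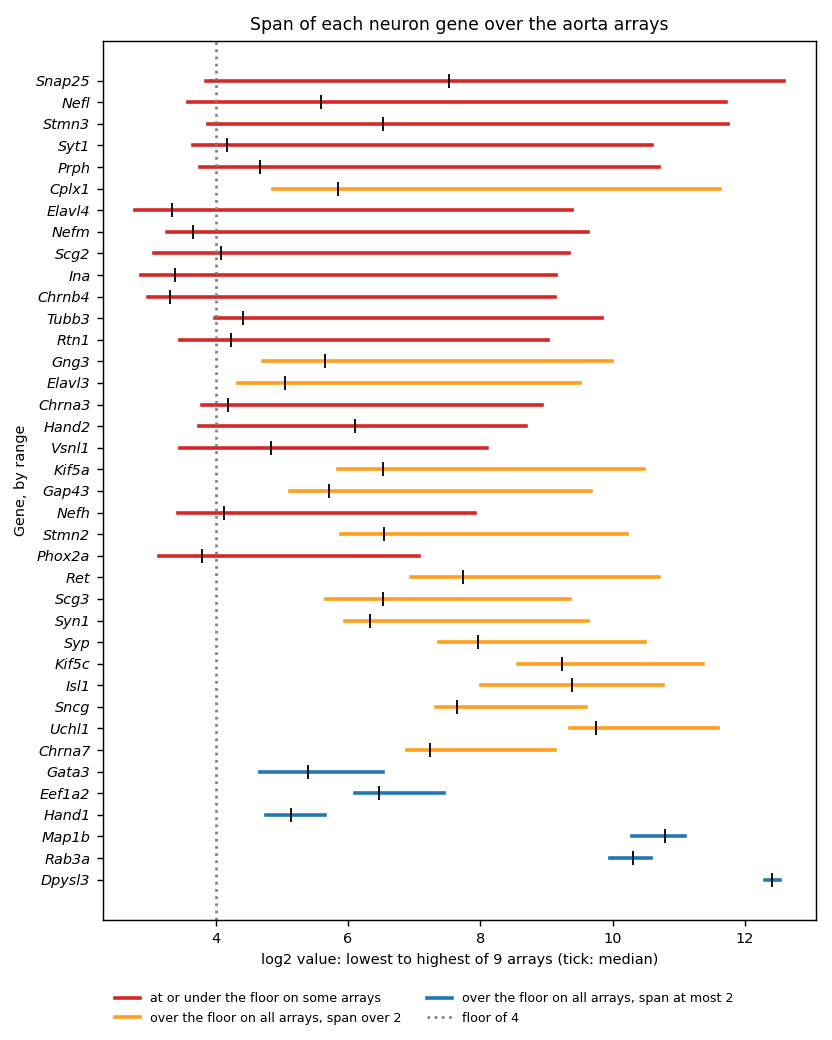
Horizontal lines run from the lowest to the highest log2 value of each gene over 9 arrays, with a tick at the median, and genes are ordered by that span. Red genes touch the floor of 4 (dotted) on at least 1 array, orange genes stay over it with a span over 2, and the 6 blue genes run from Gata3 at 1.86 down to Dpysl3 at 0.22.

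Within the 32 wide-ranging members, the distance between the top arrays was not the same for all. Wild type replicate 3 exceeded knockout replicate 1 by a median of 1.67 log2 units, from 0.72 for Chrna7 to 2.37 for Chrnb4. It exceeded wild type replicate 4 by a median of 3.11, from 1.69 to 4.56. Snap25 and Stmn3 had a small gap to knockout replicate 1, at 1.20 and 1.22, beside a large total range, whereas Nefm and Elavl4 had gaps of 2.34 and 2.18. Without wild type replicate 3 and knockout replicate 1, 14 members still had a range over 2.

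Different probe sets of a gene did not always tell the same story. The 38 members have 77 probe sets, of which 62 were highest on wild type replicate 3 and 45 had a range over 2. For 15 of the 24 members with more than 1 probe set, some probe sets lay over a range of 2 and others under it. Hand1 is the case where this matters most: its representative had a range of 0.90, while its dimmer probe set went from 3.34 to 7.96 with its highest value on wild type replicate 3. The flat reading of Hand1 therefore rests on the choice of probe set. In the other 14 such members the probe set read here had a range over 2. It was not always the only such probe set, nor the widest: for Cplx1 another reached 7.21 against 6.76. With the mean of all probe sets of a gene, 29 members had a range over 2.

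Lists of marker genes outside the members were read for the same order of arrays. Of 12 noradrenergic genes named on the array, 11 had a range over 2 and 11 were highest on wild type replicate 3. Th, tyrosine hydroxylase, the first enzyme of noradrenaline synthesis, was at 5.14, 11.28, 7.17 and 3.31 in wild type and at 9.18, 3.82, 4.54, 5.17 and 3.90 in knockout, and Npy, the peptide released with noradrenaline, had the widest range of that list, from 3.66 to 12.30. Of the cholinergic, sensory and central nervous system markers, 1 of 5, 1 of 8 and 1 of 9 had a range over 2. At or under the floor on all 9 arrays were 3 of 5, 4 of 8 and 7 of 9 of them. On the other side, 3 sensory markers were over the floor on every array. Avil, advillin, was the sensory marker with the widest range, from 6.58 to 10.46, and was highest on wild type replicate 3. Vip led the cholinergic list with 5.88 on knockout replicate 1 and at most 4.62 elsewhere. Of the 7 adrenal markers none was highest on wild type replicate 3; Pnmt, which makes adrenaline, ranged from 5.66 to 7.94 and was highest on knockout replicate 2.

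The glial genes that accompany peripheral neurons followed in part. Of 11 Schwann and satellite cell genes, 6 had a range over 2, and the mean of the list was 9.61 on wild type replicate 3, 8.93 on knockout replicate 1 and 8.70 on knockout replicate 4, against 7.59 to 8.35 on the other arrays. Fabp7, a fatty acid binding protein of satellite glia, went from 3.35 to 9.02 with knockout replicate 1 second at 8.07. Mbp, myelin basic protein, was instead second on knockout replicate 4, at 11.40 against 11.97 on wild type replicate 3 and 11.19 on knockout replicate 1. The neuron genes were not raised on knockout replicate 4, whose mean over the 38 members was 6.15. The glial genes' part in the members' values was not tested.

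Other neuron genes that are no members followed less uniformly. In the synaptic vesicle list, 7 of 16 had a range over 2, led by Syt4, from 4.0 to 11.43. In the axon and microtubule list 8 of 17 did, led by Dync1i1, a dynein chain, from 3.73 to 8.75. Of the RNA-binding genes 4 of 7 did, led by Elavl2 (3.43 to 11.04), of the channels and receptors 5 of 8, led by the sodium channel Scn9a (2.74 to 8.62), and of the further transcription factors 2 of 6, led by Myt1 (3.19 to 8.70). None of the 8 smooth muscle, 7 fibroblast, 9 endothelial and 5 macrophage markers had such a range, the widest in each list being Des at 1.27, Pi16 at 1.39, Nos3 at 1.18 and Adgre1 at 1.49.

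Markers of other tissues varied too, in part on the arrays high in neuron genes. Skeletal muscle genes were high on knockout replicate 3 alone, where their mean was 9.07 against 4.14 to 4.68 elsewhere, with Myh4, a fast myosin, at 10.44. All 6 cardiac genes were highest on wild type replicate 4, which follows the top pair in most members. Myh6, a cardiac myosin, was at 10.32 there and from 4.03 to 9.05 elsewhere. The adipocyte list had its highest mean on wild type replicate 3, at 11.55 against 10.50 to 11.50 elsewhere, and 4 of its 7 genes were highest there. Its mean on knockout replicate 1 was 10.93, and Lep, leptin, had its widest range, from 4.78 to 7.84 with the highest value on knockout replicate 4. The part of these tissues in the members' values was not tested.

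**Figure D3:**
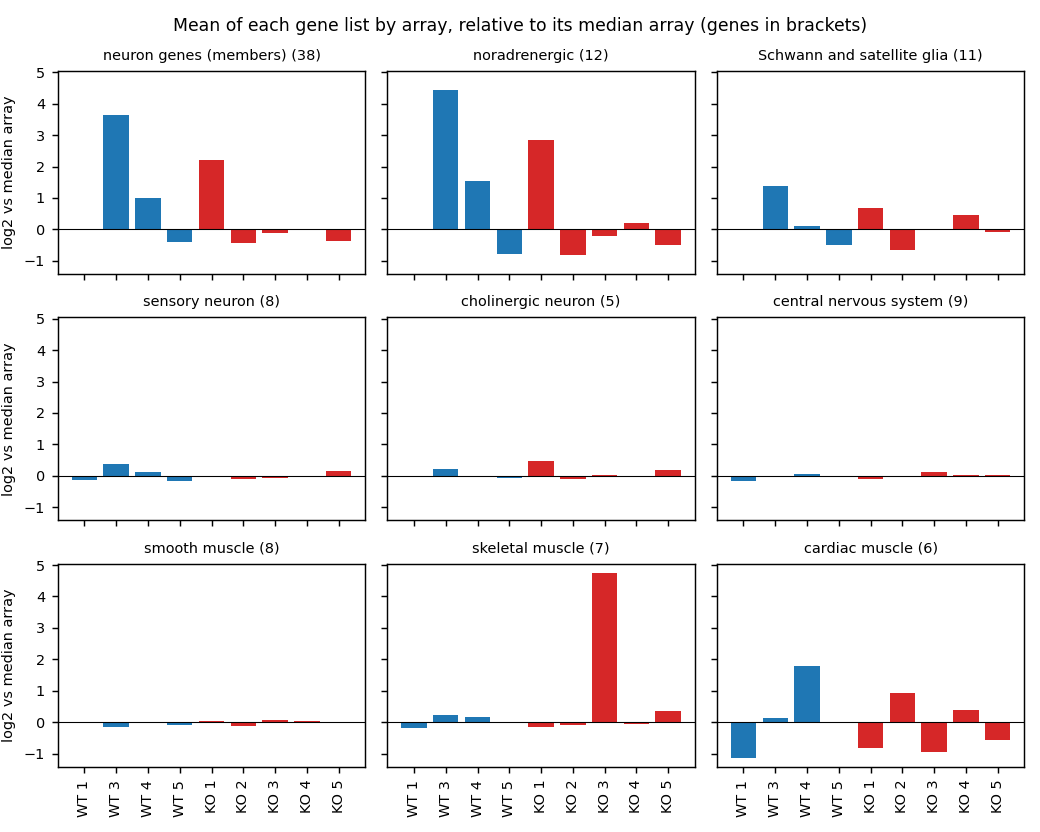
Bars give the mean log2 value of a gene list on each array (WT blue, KO red) minus the list's median array, with the number of genes in brackets. The neuron and noradrenergic lists peak on wild type replicate 3 and knockout replicate 1, the glial list follows with less height, and the skeletal and cardiac muscle lists peak on knockout replicate 3 and wild type replicate 4.

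The genotype comparison asked whether aortas without L-PGDS differ in these transcripts. In limma, 0 of 33 tested members passed an adjusted p of 0.05, where 8 of 14320 tested genes, 0.0559%, passed. The other 5 members (Phox2a, Nefm, Ina, Chrnb4 and Elavl4) were over the floor on 3 arrays only, fewer than the 4 required for the test. At an unadjusted p under 0.05 there was 1 member, Map1b, or 3.03% of those tested, against 19.9% of all tested genes. The spread between arrays of 1 genotype was large: the median standard error (SE) of a change was 0.85 among the tested members and 0.10 among all tested genes.

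The direction of the changes depended on which high arrays were in the fit. With all 9 arrays, 28 of 33 tested members had a change below 0 (knockout minus wild type), against 43.3% of all tested genes, and the median change was −0.83, against 0.027 over all tested genes. Without wild type replicate 3, 11 of 33 lay below 0 and the median was 0.11. Without both that array and knockout replicate 1, 24 of 32 tested members lay below 0 and the median was −0.38. Without knockout replicate 1 alone, 30 of 33 lay below 0 and the median was −1.26. The share of all tested genes below 0 was not counted with arrays left out. Their median change lay between 0.022 and 0.034 without any 1 array. Stmn3 had the largest difference among tested members, from a wild type mean of 8.07 ± 2.80 (SD, n = 4) to a knockout mean of 6.29 ± 2.57 (SD, n = 5), a change of −1.79 (SE 1.57, adjusted p 0.549 in limma). Its change ran from −2.84 without knockout replicate 1 to −0.56 without wild type replicate 3. Snap25 was at 8.58 ± 3.57 and 6.90 ± 2.90, a change of −1.68 (SE 1.89), which ran from −3.15 without wild type replicate 5 to −0.35 without wild type replicate 3. Nefl was at 7.30 ± 3.53 and 5.99 ± 2.52, a change of −1.31 (SE 1.77), and without wild type replicate 3 its change was 0.17. With standard errors of this size, differences of several-fold between genotypes could not have been told from the spread between arrays.

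Map1b, Dpysl3 and Rab3a, with ranges under 1, had smaller standard errors. Map1b had a wild type mean of 10.93 ± 0.11 (SD, n = 4) and a knockout mean of 10.58 ± 0.20 (SD, n = 5), a change of −0.35 (SE 0.11, p 0.0090, adjusted p 0.150 in limma). Without wild type replicate 3 the change was −0.30, and its other probe sets differed by −0.20 and −0.059 with all arrays. Dpysl3 was at 12.36 ± 0.05 and 12.47 ± 0.06, a change of 0.10 (SE 0.052, adjusted p 0.305), and of 0.099 without wild type replicate 3. Its other probe sets differed by 0.24 and 0.25. Rab3a was at 10.23 ± 0.26 and 10.33 ± 0.11, a change of 0.10 (SE 0.12, adjusted p 0.664), which ran from 0.0077 without wild type replicate 5 to 0.22 without wild type replicate 3. For Map1b and Dpysl3 the groups did not overlap, which makes 2 of the 33 tested members. That is near the share over all tested genes, of which 6.76% had groups that did not overlap. None of the 3 passed the adjusted threshold.

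**Figure D4:**
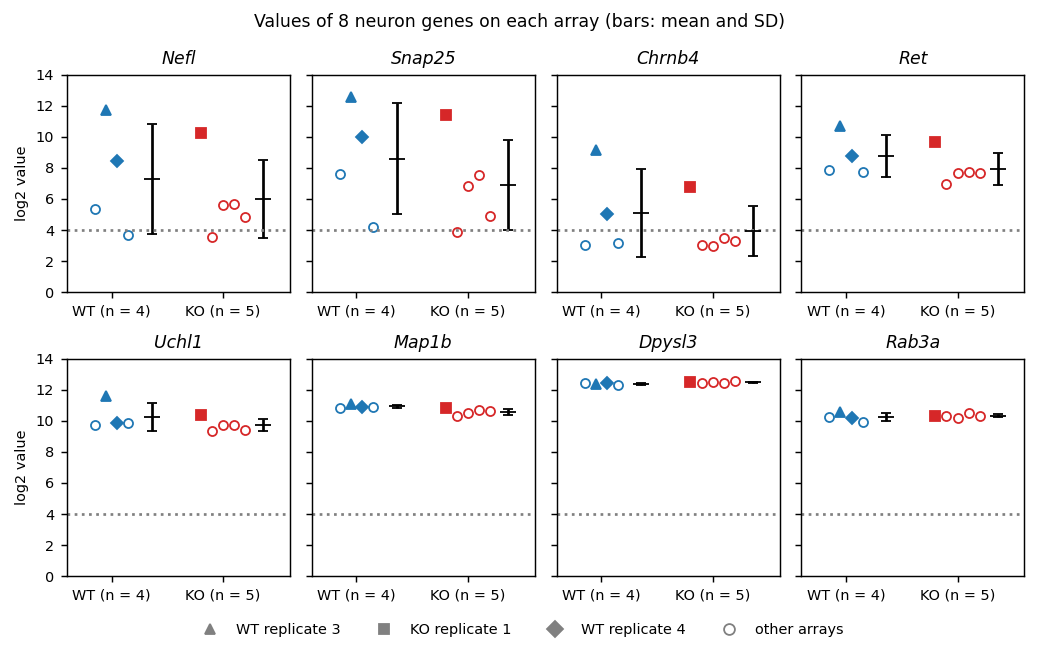
Points are log2 values of 8 genes on single arrays, wild type (blue, n = 4) and knockout (red, n = 5), with mean and SD as black bars and the floor of 4 dotted. Nefl, Snap25 and Chrnb4 are spread widely in both genotypes with wild type replicate 3 (triangle) and knockout replicate 1 (square) on top, while Map1b, Dpysl3 and Rab3a are tight.

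In the related lists 0 genes passed, with all arrays or without wild type replicate 3, and the counts below 0 changed with that array. With all arrays, 8 of 14320 tested genes passed and 43.3% of them lay below 0. The share of all tested genes below 0 was not counted without that array, so the second counts have no such reference. Of the 11 tested noradrenergic genes, 10 lay below 0 with all arrays and 7 without it. The smallest p in that list was that of Gch1, which makes a cofactor of Th, at −0.79 (SE 0.51, adjusted p 0.413 in limma), and −0.23 without wild type replicate 3. Synaptic vesicle genes lay below 0 in 12 of 15 with all arrays and in 8 of 14 without it, and axon and microtubule genes in 12 of 16 and in 6 of 16. For RNA-binding genes these counts were 7 of 7 and 6 of 7, for channels and receptors 4 of 4 and 2 of 4, for the further transcription factors 3 of 5 and 2 of 5, for glial genes 9 of 11 and 4 of 11, and for sensory genes 2 of 3 and 0 of 3. The median change with all arrays was −1.24 in the noradrenergic list and −0.22 in both the synaptic vesicle and the axon list. Nova2, a splicing regulator, had the smallest p among these lists, with a change of −0.57 (SE 0.13, adjusted p 0.110 in limma), and −0.44 without wild type replicate 3 (adjusted p 0.164). All these lists share their arrays with the members, so their changes are no independent count.

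**Figure D5:**
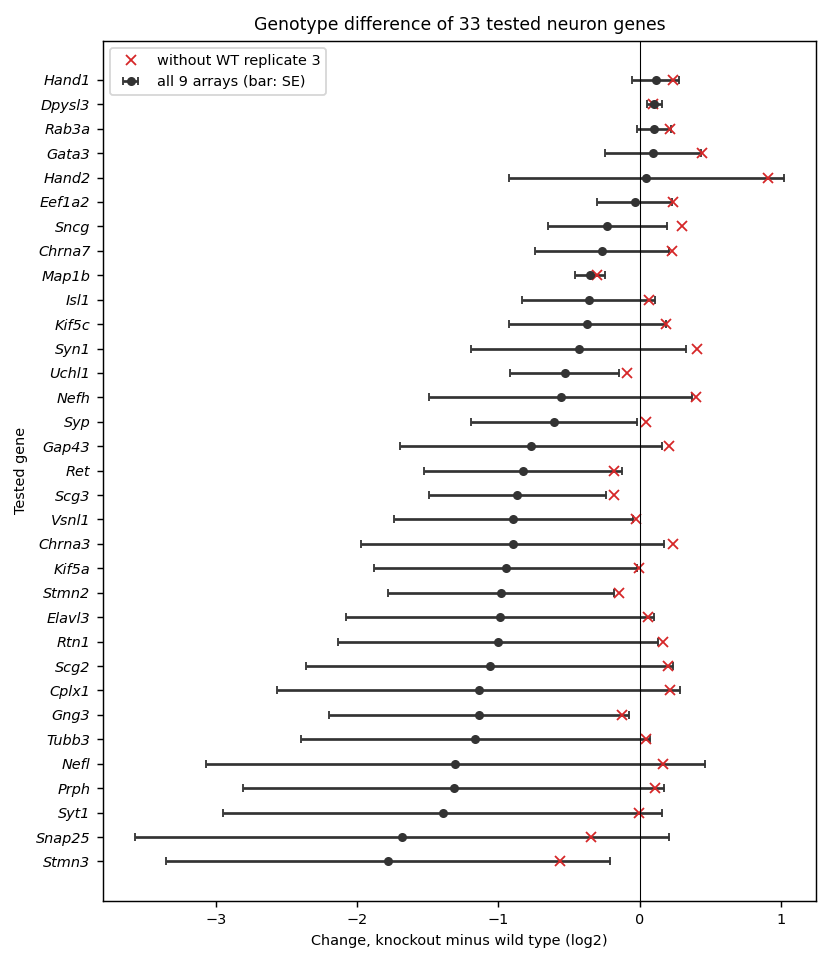
Black points are the changes (knockout minus wild type, log2) of the 33 tested genes from limma with all 9 arrays, with SE bars; red crosses are the changes without wild type replicate 3. Most points lie left of 0 with wide bars, the crosses lie nearer 0 for most genes below 0, and Map1b, Dpysl3 and Rab3a have short bars.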

How the data were processed

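Aorta RNA was measured on 9 arrays with values (4 wild type, 5 knockout). GCRMA is named in the submitters' processing notes, without version or scale. The authors' deposited GCRMA values, from 1.75 to 14.81, were read as log2 values. GCRMA normalizes arrays together and compresses differences near background, so changes of dim genes are understated. Levels of different probe sets were used only to pick the brightest of a gene, to apply the common floor and to average lists. They do not rank transcripts. Of 45101 probe sets, 34945 carry 1 gene symbol. Genes with a log2 value over 4 on at least 4 arrays were tested with limma 3.58.1 (R 4.3.3; lmFit, eBayes, 2 groups), with Benjamini-Hochberg adjustment over all 14320 genes and a threshold of 0.05. The procedure was tested on simulated data. The members and gene lists were chosen with earlier results of these data known. All members are named, with the widest-ranging gene or the gene of smallest p of other lists; Th, Mbp, Kif5b and Chrna5 were added after their values were seen. Lists were described by counts, with no test. The symbols of all 38 members matched their gene identifiers in GRCm38.p6. The number of arrays limits the precision. No wild type array correlated best with the knockout array of its replicate number, so the main fit used no pairing. Whether same-numbered arrays shared a batch cannot be told from this. Alternatives covered normalization, filter, probe set rule, limma options, a covariate, a replicate block and left-out arrays.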

Additional observations from a re-analysis of the deposited data

Results flagged for a closer look

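Within a genotype, 1 array stood far from the others for 23 of 76 combinations of member and genotype, where chance gives about 1 in 20. Knockout replicate 1 accounted for 20 of them and wild type replicate 3 for 3. These genes vary together, so the 23 are not separate events.

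The log2 value of knockout replicate 1 stood above the other knockout arrays for Ret (9.66), Nefm (7.29), Nefh (6.53), Prph (8.79), Ina (6.97), Tubb3 (8.03), Stmn2 (8.44), Gap43 (7.95), Kif5a (8.75) and Syt1 (9.01). It likewise stood above them for Syn1 (8.12), Cplx1 (9.69), Scg2 (7.53), Chrna3 (6.84), Chrnb4 (6.77), Chrna7 (8.41), Elavl3 (7.93), Elavl4 (7.20), Gng3 (8.46) and Rtn1 (7.01). Wild type replicate 3 stood above the other wild type arrays for Scg3 (9.35), Uchl1 (11.59) and Sncg (9.59).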

How the results depend on the processing

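No member passed the threshold under any alternative, with an unadjusted p under 0.05 for 1 in limma as reported. The count of all genes past the threshold was 8; it was 19 with a floor of 6, 33 with limma's trend and robust options, 73 with array weights, 3 without the 2 arrays highest in the noradrenergic list (wild type replicate 3 and knockout replicate 1), and from 2 to 1074 without any 1 array, the highest without wild type replicate 1. With a floor of 6, 11 members were over it on every array and 19 were tested. Members with a range over 2 numbered 25 without wild type replicate 3 and 14 without it and knockout replicate 1. The median change of the members ran from −1.26 to 0.11 without any 1 array and was 0.0079 with the noradrenergic mean as a covariate. Same-numbered arrays deviated with correlations of −0.36, −0.15, 0.060 and 0.21, and 0 of 4 wild type arrays correlated best with the knockout array of its number. With the replicate number as a block, in which knockout replicate 2 has no partner, 0 genes passed, the members' median change was −0.61, and Hand2 turned to −0.036.

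Single changes turned sign as follows, all without a call, and the cause was not tested. With quantile normalization Hand2 was at −3.8e-05, and with the mean of all probe sets Hand1 was at −0.48. With array weights the change was 0.016 for Nefh, 0.13 for Eef1a2 and 0.071 for Sncg. With the covariate it was 0.26 for Nefl, 0.24 for Nefh, 0.0079 for Prph, 0.041 for Gap43, 0.12 for Kif5c, 0.22 for Syn1, 0.12 for Cplx1, 0.083 for Scg2, 0.037 for Chrna3, 0.15 for Chrna7, 0.0046 for Rtn1, 0.17 for Eef1a2 and 0.074 for Sncg. Without the 2 arrays it was 0.047 for Syn1, 0.17 for Eef1a2 and 0.25 for Sncg. Without any 1 array, changes ran from −0.73 to 0.91 for Hand2, −0.66 to 0.066 for Isl1, −2.50 to 0.17 for Nefl, −1.10 to 0.40 for Nefh, −2.24 to 0.11 for Prph, −1.91 to 0.045 for Tubb3, −1.27 to 0.21 for Gap43, −0.74 to 0.19 for Kif5c, −0.95 to 0.043 for Syp and −0.82 to 0.41 for Syn1. They ran from −2.04 to 0.21 for Cplx1, −1.83 to 0.21 for Scg2, −1.48 to 0.24 for Chrna3, −0.52 to 0.23 for Chrna7, −1.66 to 0.062 for Elavl3, −1.65 to 0.16 for Rtn1, −0.21 to 0.24 for Eef1a2, −0.45 to 0.30 for Sncg and −0.18 to 0.44 for Gata3. In each of these 19 members the highest value was that without wild type replicate 3. Entering members over the floor on at least 1 array, an alternative chosen after seeing the data, tested all 38 and 0 passed.
The related lists were also fitted without wild type replicate 3, and without it and knockout replicate 1, chosen after seeing the data, and 0 of their genes passed in either fit.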
